A study of Mus musculus with 2 samples.

Results

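Serpins are a family of protease inhibitors and related proteins, sorted into clades A to I by sequence. The genes described here are those whose symbol begins with Serpin, a clade letter from a to i and a number, which gave 62 of the 32285 genes in the deposited gene tables: 24 of clade A, 27 of clade B, 3 of clade E, 2 each of clades F and I, and 1 each of clades C, D, G and H. All 62 were protein-coding genes of GENCODE M21. Their mRNA was counted by droplet single-cell RNA sequencing in cells of the cornea and limbus (the rim of the cornea that borders the conjunctiva) of wild-type (wt) mice. There were 2 libraries, 1 from uninjured control corneas and 1 from corneas with an NaOH (alkali) injury. The sources used here do not give the strain, age, sex, number of eyes or mice pooled, time after injury or extent of the burn. The corneas were taken from the anterior segment with most conjunctiva cut away, and the tissue was digested with liberase, then trypsin. With 1 library a group, no difference below could be set against the spread between mice, and none was tested. Intervals are 95% and cover counting error only.

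A serpin presents its reactive centre loop as bait. When a protease cuts the loop, the serpin changes shape and holds the enzyme in a dead-end complex. Clade A members are mostly secreted, clade B members mostly stay inside the cell, and a few serpins, among them the collagen chaperone encoded by Serpinh1, the anti-angiogenic factor encoded by Serpinf1 and maspin encoded by Serpinb5, are known for functions other than protease inhibition.

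The analysed cells numbered 6743 in the uninjured and 8368 in the injured library, with 77213099 and 96887211 UMIs (unique molecular identifiers, each counting 1 captured mRNA molecule). Median UMIs per cell were 10152 and 10606, and 15 cell barcodes occurred in both libraries. Epithelial-like cells numbered 5234 and 5726, stromal-like 459 and 803, mural-like 58 and 86, Schwann-like 54 and 97, vascular endothelial-like 42 and 211, and macrophage or monocyte-like 14 and 344 in the uninjured and injured library. Neutrophil-like cells (2 and 1016) and T or NK-like cells (3 and 16) were too few in the uninjured library for a comparison. Clusters 5 and 10 stayed unnamed and held 877 and 69 cells together. Cluster 5 (800 uninjured and 3 injured cells) was shallow. It scored highest for epithelial markers, of corneal type, but is not part of the epithelial-like class. Levels are CPM, the UMIs of a gene per 1000000 UMIs of the class in a library. They count molecules and were not scaled by gene length, and capture may differ between genes.

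Over all analysed cells the family made up 1085 CPM in the uninjured and 2025 CPM in the injured library (83747 and 196186 UMIs). Of the 62 genes, 26 had at least 20 UMIs over both libraries, 17 had 1 to 19 and 19 had none. Serpinb5 had the most UMIs (84732), followed by Serpinb3a (40692), Serpina3n (28821), Serpinb6a (22608), Serpinf1 (22094), Serpinh1 (18445), Serping1 (16026) and Serpinb1a (15696). These 8 genes belong to clades A, B, F, G and H, and the heat map of levels by cell class shows where each was highest.

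**Figure D1:**
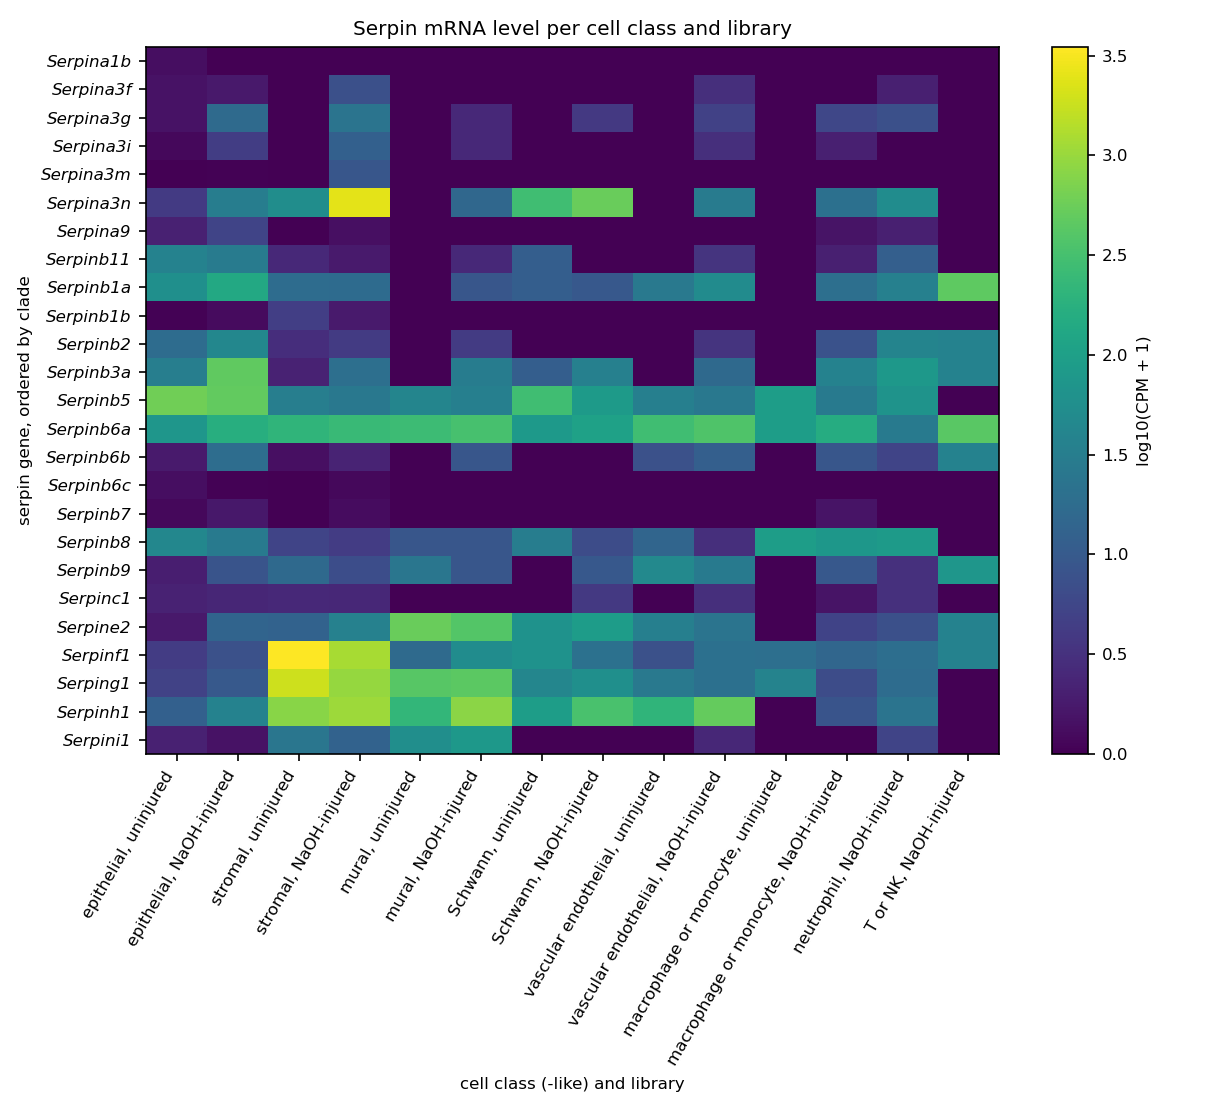
Heat map of log10(CPM + 1) for 25 serpin genes with at least 20 UMIs (rows, by clade) in each cell class and library with at least 10 cells (columns). Serpinf1, Serping1, Serpinh1 and, in the injured library, Serpina3n are brightest in stromal-like cells, Serpinb5 and Serpinb3a in epithelial-like cells and Serpine2 in mural-like cells.

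The members without a UMI were Serpinb13, Serpinb3c, Serpini2, Serpina16, Serpina1f, Serpina1a, Serpina1c, Serpina11, Serpina12, Serpina3j, Serpina3k, Serpinb9c, Serpinb9d, Serpinb9e, Serpinb9f, Serpinb9h, Serpinb9g, Serpinb6d and Serpina7. At this depth none of these was detectable, which allows up to 3 UMIs of each library's total. The 17 members with 1 to 19 UMIs ranged from 1 UMI (Serpina10, Serpina5, Serpina3a, Serpina1d and Serpinb6e) to 16 (Serpinb1c). They include liver products of the blood such as Serpina6, the corticosteroid-binding globulin (3 UMIs), Serpinf2, the plasmin inhibitor alpha-2-antiplasmin (7 UMIs), and Serpind1, heparin cofactor II (15 UMIs).

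Most of the genes lie in 3 tandem arrays (GENCODE M21, GRCm38). Chromosome 12 between 103614786 and 104414329 holds 23 clade A members, of which 7 had at least 20 UMIs. Chromosome 1 between 106861173 and 107610484 holds 11 clade B members, 6 of them with at least 20 UMIs, and chromosome 13 between 32842092 and 34002794 holds 16, again with 6. Neighbours in an array differed widely. On chromosome 12 Serpina3n had 390 and 28431 UMIs in the uninjured and injured library, Serpina3g 34 and 1512, Serpina3i 12 and 393, Serpina3f 34 and 130 and Serpina3m 0 and 84, while Serpina3j and Serpina3k had none. On chromosome 1 Serpinb3a had 2167 and 38525 UMIs and its neighbours Serpinb3d and Serpinb3b 0 and 5 each. On chromosome 13 the outer genes Serpinb1a (4206 and 11490) and Serpinb6a (5588 and 17020) enclose a run of 7 genes without a UMI, Serpinb9c, Serpinb9d, Serpinb9e, Serpinb9f, Serpinb9h, Serpinb9g and Serpinb6d.

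**Figure D2:**
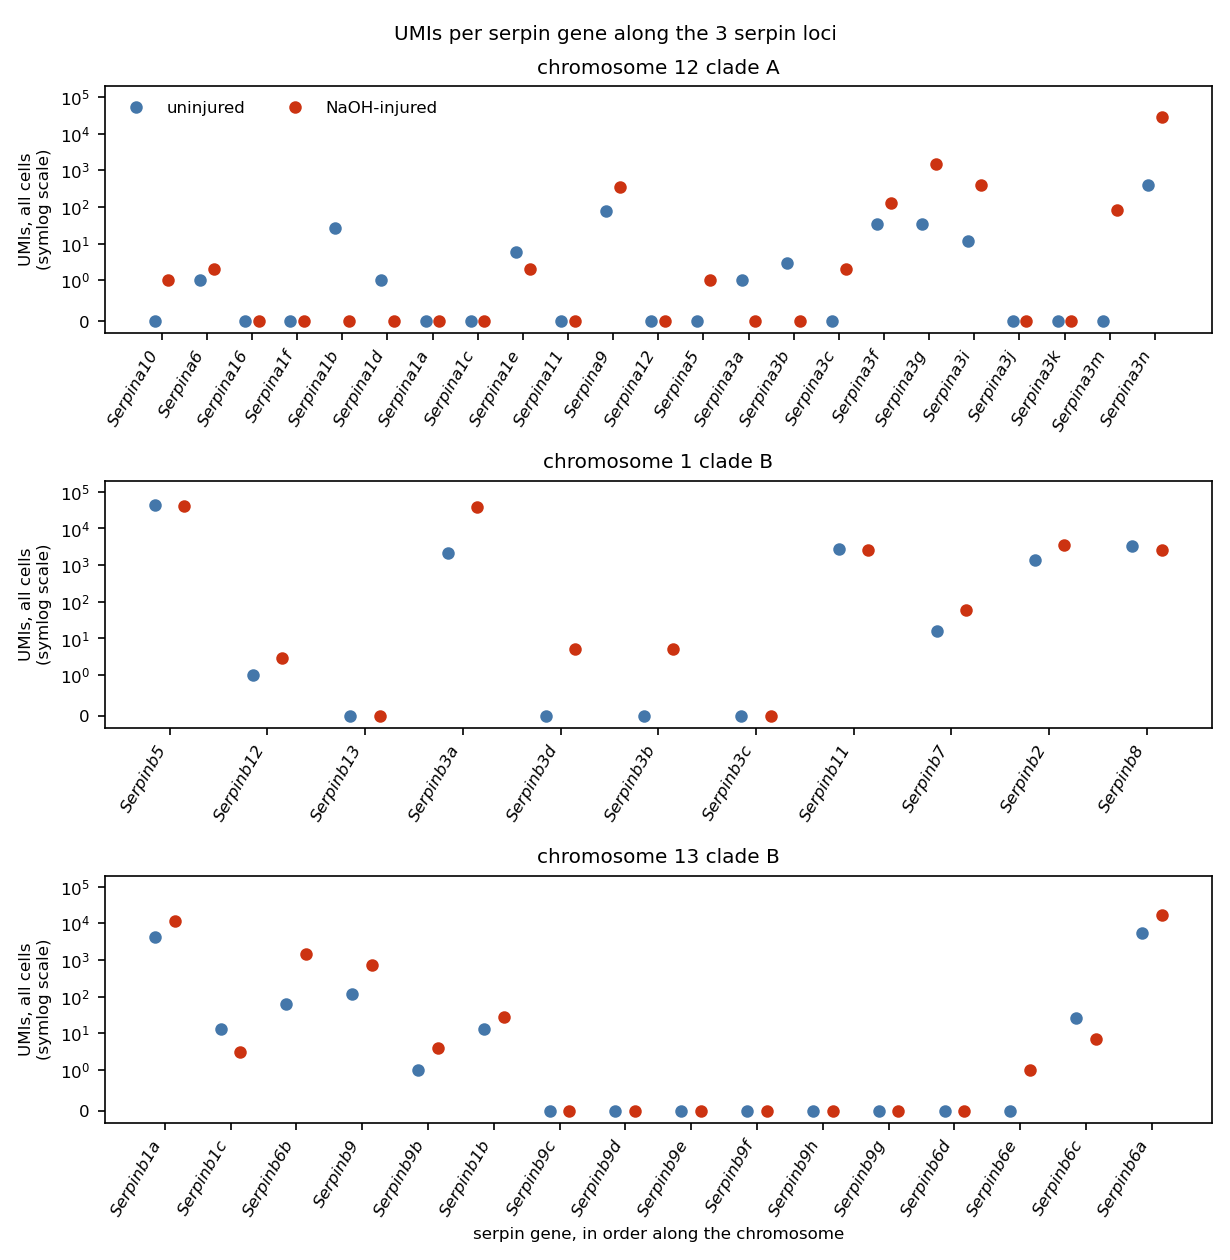
UMIs of each serpin gene over all analysed cells (y axis, symlog scale) in gene order along the arrays of chromosomes 12, 1 and 13, with the uninjured library in blue and the injured library in red. Genes with over 10000 UMIs stand beside genes with 0, and the Serpina3 genes from Serpina3f to Serpina3n lie higher in the injured library wherever they were detected.

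Near-identical copies limit what can be said of single genes, because a read that fits several genes cannot be assigned to a given copy. As a measure, the 30-base words of the last 500 bases of each gene's longest coding transcript were looked up in the transcripts of all other genes. The share found elsewhere was 1.9% for Serpina3n, 3.4% for Serpinb6a, 16.3% for Serpina3g, 10.6% for Serpina3i, 13.4% for Serpina3f and 19.1% for Serpinb3a. It was 54.6% for Serpina1b and 87.3% for Serpinb9h, and all words of Serpinb9f were found elsewhere. The counts of 0 of the Serpinb9 copies other than Serpinb9c (0.0%) are thus uncertain. So are the counts of the Serpina1 genes other than Serpina1f (1.5%). The low counts of Serpinb3b (26.3%), Serpinb3c (25.3%) and Serpinb3d (41.4%) are uncertain in the same way. Some annotated genes also overlap on the same strand, Serpina3m with Serpina3k, Serpina1b with Serpina1d and Serpinb3b with Serpinb3c, which leaves the split of reads within these pairs uncertain.

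Promoters of the arrays were compared where copies with and without UMIs stand side by side. The RefSeq table (GRCm38.p6) held 53 of the 62 members. The members without an entry include Serpinb1a, Serping1, Serpina3m, Serpina3k and Serpina9. The Serpina3 stretches are shown because 4 of these 6 genes were higher after injury in stromal-like cells, and because a stretch of 9 aligned bases, in capitals, matches the letters TTCNNNGAA in some copies and not in others. This pattern is known as the gamma-activated site of STAT factors. Each line gives 93 bases, 5′ to 3′ on the gene's strand, upstream of the annotated start. Positions are chr12:104236054-104236146 for Serpina3g, chr12:104262960-104263052 for Serpina3i, chr12:104214363-104214455 for Serpina3f, chr12:104406525-104406617 for Serpina3n, all on the + strand, chr12:104153960-104154052 on the - strand for Serpina3c and chr12:104127813-104127905 on the + strand for Serpina3b.
Serpina3g: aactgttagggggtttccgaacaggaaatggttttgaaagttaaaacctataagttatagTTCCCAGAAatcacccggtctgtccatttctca
Serpina3i: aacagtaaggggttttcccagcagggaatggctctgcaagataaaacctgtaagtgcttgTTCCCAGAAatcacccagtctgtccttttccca
Serpina3f: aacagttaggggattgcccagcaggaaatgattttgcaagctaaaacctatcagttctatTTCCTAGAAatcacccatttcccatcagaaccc
Serpina3n: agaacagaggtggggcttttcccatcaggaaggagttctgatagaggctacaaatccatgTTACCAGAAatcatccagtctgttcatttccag
Serpina3c: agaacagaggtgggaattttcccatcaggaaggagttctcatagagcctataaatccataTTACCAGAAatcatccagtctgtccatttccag
Serpina3b: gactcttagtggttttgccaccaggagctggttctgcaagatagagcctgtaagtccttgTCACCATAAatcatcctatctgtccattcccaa

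The pattern TTCNNNGAA, which reads the same on both strands, is present in Serpina3g, Serpina3i and Serpina3f and absent from the same place in Serpina3n, Serpina3c and Serpina3b. Over the 32851 promoters searched (250 bases before the start), which do not cover every chromosome of the table, 7.02% held it. Among serpins also those of Serpina11, Serpina1f, Serpinb2, Serpinb6a and Serpinb9c did. Serpina3n, with 28821 UMIs, and Serpina3c, with 2, have promoters that are 92.7% identical over 247 aligned bases. Serpina3g and Serpina3i are 80.4% identical over 179, and Serpina3n and Serpina3g 69.9% over 156. A match is a description of letters in this window only.

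The same contrast is seen in the Serpinb3 genes of chromosome 1, whose promoters carry TATAAA, in capitals. The stretches are chr1:107052341-107052433, chr1:107161128-107161220 and chr1:107278375-107278467 (GRCm38.p6, - strand), shown because the counts were 40692 UMIs for Serpinb3a, 5 for Serpinb3b and 0 for Serpinb3c. The counts of Serpinb3b and Serpinb3c are uncertain because of the shared words and the overlap given above.
Serpinb3a: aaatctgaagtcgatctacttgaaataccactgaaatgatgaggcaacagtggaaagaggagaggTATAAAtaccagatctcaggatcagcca
Serpinb3b: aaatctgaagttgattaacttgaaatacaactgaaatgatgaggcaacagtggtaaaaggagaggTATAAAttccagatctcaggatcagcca
Serpinb3c: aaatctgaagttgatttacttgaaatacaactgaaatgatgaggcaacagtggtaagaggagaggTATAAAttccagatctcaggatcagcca

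The 250 bases before the start of Serpinb3a are 92.5% identical to those of Serpinb3b over 226 aligned bases and 94.0% identical to those of Serpinb3c over 216. TATAAA on either strand occurred in 12.4% of the promoters searched and in 14 of the 53 serpin entries.

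In epithelial-like cells the question was which serpins differed between the uninjured and the NaOH-injured cornea. The 2 epithelia were not alike in make-up. Krt12, the keratin of corneal epithelium, was at 19101 CPM uninjured and 26.9 CPM injured, and the clusters with corneal markers (0, 1, 6, 8 and 9) held 405, 1234, 1174, 1148 and 784 uninjured cells but at most 3 injured cells each. The unnamed cluster 5, with Krt12 at 26865 CPM in its 800 uninjured cells, is not counted in these class levels. A gene with at least 20 UMIs over both libraries in a class was counted as higher or lower if its levels differed at least 2-fold and the interval of the ratio excluded 1. Of 25 serpins with enough UMIs, 17 were higher after injury, 3 lower and 5 neither. Of all 14617 genes with enough UMIs in these cells, 13.8% were higher and 11.5% lower. The median log2 ratio was 1.30 for the serpins and 0.01 for all genes. Of the 17 higher genes, 6 (Serpinb3a, Serpinb2, Serpinb1a, Serpinb6a, Serpinb6b and Serpina3g) reached 10 CPM and at least 25% of their level in the class where they were highest. The other 11 were at low levels or highest elsewhere.

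Serpinb3a, a mouse relative of the human squamous cell carcinoma antigens, which inhibit serine and cysteine proteases, had 31.8 CPM in the uninjured and 475 CPM in the injured epithelium (2142 and 38071 UMIs). It was 15.0-fold higher (14.3 to 15.6). A UMI of it was found in 4.11% of uninjured and 42.6% of injured epithelial-like cells, and with every cell thinned to 1000 UMIs in 1.38% and 17.8%. In injured stromal-like cells, where 19.4% had a UMI, its level was 3.90% of the epithelial level, next to 4.82% for Krt14 and 5.69% for Krt5, the keratins of basal epithelium.

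Serpinb3a also differed between clusters that the libraries share unequally. The serpin genes were left out when clusters were made. In clusters 3 and 4, which have conjunctival-type markers (Krt4 in both, Krt13 and Krt19 in cluster 4) and hold 54 and 30 uninjured against 247 and 739 injured cells, the uninjured level was already 742 and 1007 CPM, and the injured level 1827 and 1261 CPM. The ratio within them was 2.46 (2.26 to 2.69) in cluster 3 and 1.25 (1.17 to 1.34) in cluster 4. In the limbal-type cluster 7 it was 7.56 (5.43 to 10.5, 22.5 against 170 CPM) and in the cycling cluster 13 it was 2.66 (1.98 to 3.66, 59.9 against 159 CPM). In the clusters made up almost wholly of uninjured cells (0, 1, 6, 8 and 9) Serpinb3a lay between 0.56 and 38.4 CPM. In those made up almost wholly of injured cells it was at 215 CPM (cluster 16) and 37.1 CPM (cluster 20). The 17 uninjured cells of cluster 16 had 0 UMIs of it, so the ratio there was a bound, at least 9.35. In the unnamed cluster 10 it had 0 UMIs uninjured and 63 injured, at least 22.0-fold higher.

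**Figure D3:**
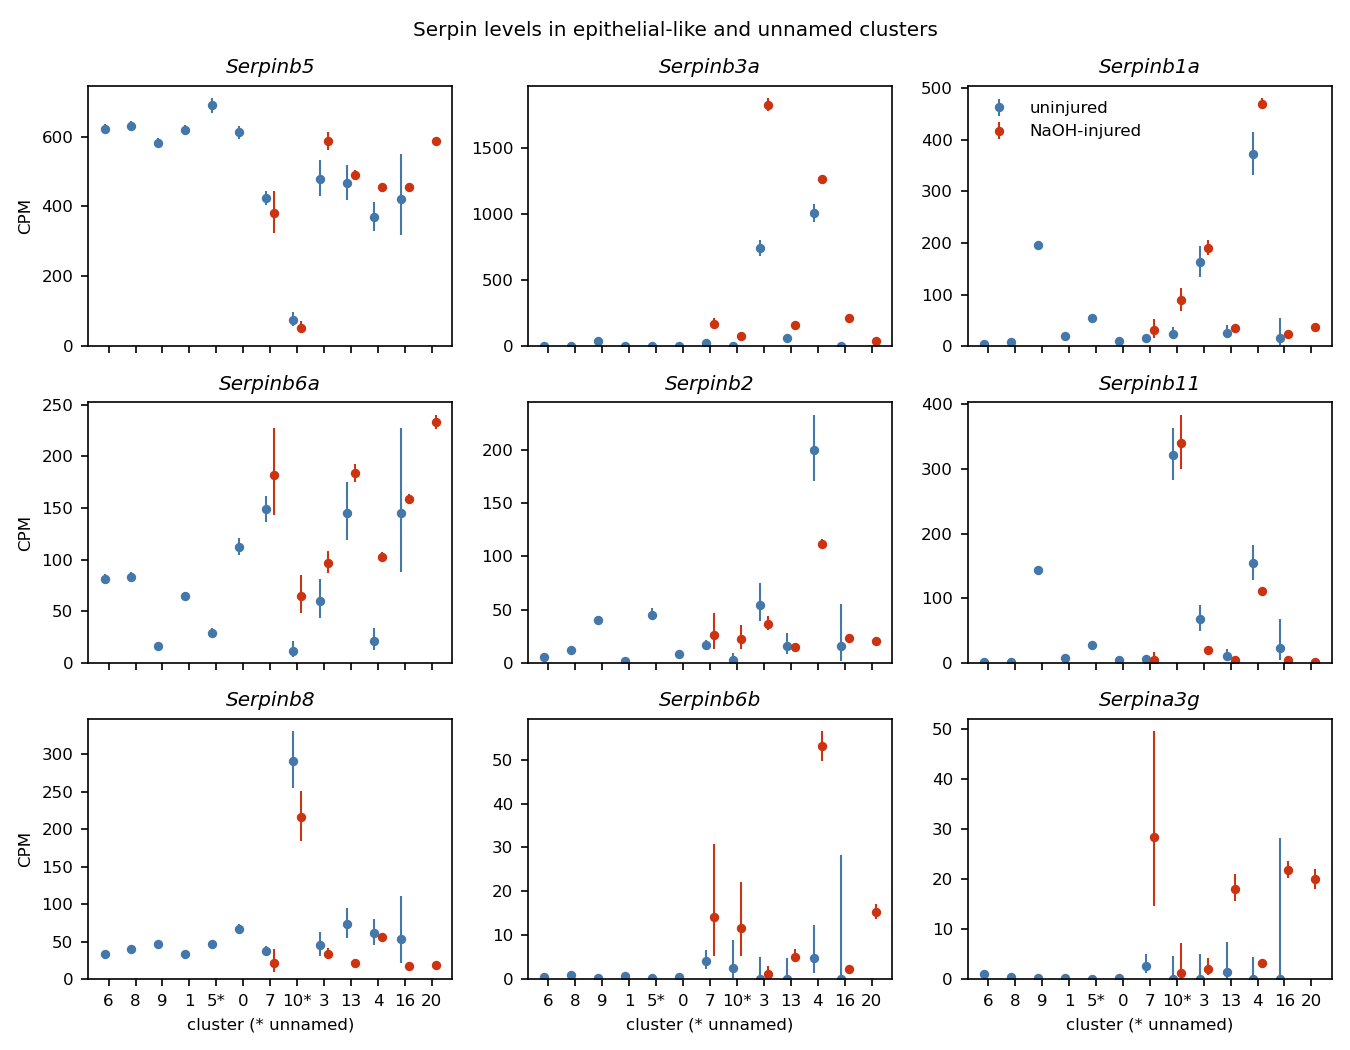
CPM of 9 serpin genes (panels, each with its own y axis from 0) in the epithelial-like clusters and in the unnamed clusters 5 and 10, ordered from left to right by their share of injured cells. Points are the sum over a cluster's cells of the uninjured (blue) or injured (red) library where it has at least 10 cells, and bars are 95% Poisson intervals. Serpinb3a peaks in clusters 3 and 4, Serpinb1a in cluster 4, Serpinb11 and Serpinb8 in cluster 10, and Serpinb5 is lowest in cluster 10.

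Serpinb5, maspin, was the serpin with the most UMIs in the epithelium and did not reach the 2-fold rule, with 596 CPM uninjured and 496 CPM injured, a ratio of 0.83 (0.82 to 0.84). At least 1 UMI was found in 92.2% and 95.8% of the cells. Across the named epithelial clusters it lay between 370 and 631 CPM. The unnamed cluster 10, led by Psca and by Lce3a and Asprv1, known from the outermost layers of squamous epithelia, stood apart at 76.6 and 53.0 CPM in the 77 uninjured and 66 injured cells.

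Serpinb1a, an inhibitor of the neutrophil proteases elastase and cathepsin G, was 56.5 CPM uninjured and 138 CPM injured, 2.44-fold higher (2.36 to 2.54). Within clusters 3 and 4 the ratios were 1.17 (0.96 to 1.44) and 1.26 (1.13 to 1.42), below the 2-fold rule, with 372 CPM uninjured and 470 CPM injured in cluster 4. The uninjured surface cluster 9 (Ly6g6c, Clic3 and Hopx) also had a high level, 196 CPM. With each cell weighted alike, or thinned to 1000 UMIs, the log2 ratio was 0.95, below the 2-fold line.

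Serpinb6a, a cathepsin G inhibitor, was 70.9 CPM uninjured and 164 CPM injured, 2.31-fold higher (2.24 to 2.39). Its level was 234 CPM in cluster 20 (injured, led by Wfdc18, Clu and Krt17), 149 and 182 CPM in the limbal-type cluster 7 and 16.5 CPM in the uninjured surface cluster 9. Within cluster 7 the ratio was 1.22 (0.95 to 1.55) and within the cycling cluster 13 it was 1.27 (1.04 to 1.55). In cluster 4 it rested on 18 uninjured UMIs and was 4.79 (3.02 to 8.09).

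Serpinb2, plasminogen activator inhibitor 2, was 16.9 CPM uninjured and 42.7 CPM injured, 2.53-fold higher (2.37 to 2.71) over the whole class. Inside clusters 3 and 4 the order turned, with 54.7 against 36.7 CPM (ratio 0.67, 0.47 to 0.98) and 201 against 111 CPM (0.56, 0.47 to 0.65). In the other clusters with at least 10 cells of each library the interval included 1, with ratios of 1.55 (0.73 to 2.96) in cluster 7, 1.54 (0.43 to 12.8) in cluster 16 and 0.95 (0.53 to 1.89) in cluster 13. The uninjured cells of the unnamed cluster 5, outside the class, had 45.3 CPM (40.1 to 51.0). At a Leiden resolution of 0.5 the log2 ratio of the class went from 1.34 to 1.15.

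Serpinb6b, a close relative of Serpinb6a in the chromosome 13 array, was 0.83 CPM uninjured and 17.4 CPM injured, 20.9-fold higher (16.01 to 27.8). Its UMIs lay in few cells, 0.96% of uninjured and 8.87% of injured ones. Cluster 4 had most, 4.77 against 53.1 CPM (4 and 979 UMIs), a ratio of 11.1 (4.33 to 40.9). With every cell thinned to 1000 UMIs the log2 ratio moved from 4.39 to 5.86, with a UMI then left in 0.020% of the uninjured cells, and with each cell weighted alike it was 3.74.

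Serpinb8, an inhibitor of the proprotein convertase furin, and Serpinb11 did not reach the 2-fold rule. Serpinb8 had 42.3 CPM uninjured and 27.9 CPM injured, 1.52-fold lower (1.43 to 1.60). Within clusters it was lower in the cycling cluster 13, 73.2 against 21.7 CPM (ratio 0.30, 0.22 to 0.41), and in cluster 16 (0.33, 0.16 to 0.83, from 7 uninjured UMIs), and 0.91 (0.69 to 1.24) in cluster 4. Serpinb11 had 35.8 and 28.8 CPM, a ratio of 0.80 (0.76 to 0.85), and at a Leiden resolution of 2 its log2 ratio turned from -0.31 to 0.23, and with 15 principal components to 0.07. Within clusters Serpinb11 was lower by the 2-fold rule in cluster 3, 67.1 against 20.1 CPM (ratio 0.30, 0.20 to 0.44), in cluster 13 (0.33, 0.15 to 0.82) and in cluster 16 (0.17, 0.06 to 0.85, from 3 uninjured UMIs). In cluster 4 it was 154 against 111 CPM (0.72, 0.60 to 0.87). Both genes were highest in the unnamed cluster 10, Serpinb11 at 321 and 340 CPM and Serpinb8 at 292 and 216 CPM in the uninjured and injured cells. Cluster 10 is not part of the epithelial-like class.

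Of the clade A genes in the epithelium, Serpina3g, which encodes an intracellular inhibitor of cathepsins, was 0.51 CPM uninjured and 15.8 CPM injured (34 and 1265 UMIs), 31.3-fold higher (22.3 to 45.4). It was detected in 14.5% of injured and 0.50% of uninjured epithelial-like cells. Unlike Serpinb3a it was lowest in the conjunctival-type clusters, 2.07 and 3.14 CPM in the injured cells of clusters 3 and 4, against 18.1 to 28.4 CPM in clusters 7, 13, 16 and 20. Within cluster 7 the ratio was 10.5 (4.14 to 27.0). In the injured library its epithelial level was 72.5% of the stromal level, whereas the stromal markers Dcn, Lum, Col1a1 and Col1a2 were at 0.38% to 0.59%.

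Serpina3n, a secreted relative of human alpha-1-antichymotrypsin, went from 3.04 to 31.1 CPM in the epithelium, 10.2-fold higher (8.85 to 11.8), but its injured level was 1.23% of that in stromal-like cells. Within clusters its ratio was 2.11 (1.11 to 3.75) in cluster 7, 1.68 (0.57 to 8.15) in cluster 16 and 5.00 (2.41 to 12.5) in cluster 13. From 0 uninjured UMIs it was at least 3.53 in cluster 3 and at least 5.12 in cluster 4. Serpina3i was 19.0-fold higher (10.7 to 37.2) from 12 UMIs, and Serpina3f, at 0.49 and 0.77 CPM, with a ratio of 1.58 (1.02 to 2.49), was below the 2-fold rule. Summed over clade A the level was 5.80 and 55.4 CPM, 9.55-fold higher (8.61 to 10.6). Summed over clade B it was 853 and 1399 CPM, 1.64-fold higher (1.62 to 1.66), and without Serpinb5 it was 257 and 903 CPM, 3.52-fold higher (3.46 to 3.57).

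Several serpins counted as higher in the epithelium belong to other classes by level. Serpinf1, at 0.55% of its stromal level in the injured epithelium, lay within the 0.38% to 0.59% of the 4 stromal markers, and the part of stromal RNA in its count was not tested. Serping1 was at 0.91%. Serpinh1 (11.0 to 36.0 CPM, 3.37% of the stromal level) lay above those markers. Serpine2, protease nexin 1, a thrombin inhibitor, was 0.74 and 12.7 CPM, 17.1-fold higher (12.8 to 23.1) and 36.2% of its stromal level after injury, and Serpinb9, an inhibitor of granzyme B, 1.01 and 7.28 CPM, 7.22-fold higher (5.61 to 9.42). These were named after their values were seen. Within single epithelial clusters Serpine2 was not counted as higher. Its ratio was 1.32 (0.70 to 2.80) in cluster 13, with 13.3 against 17.6 CPM, and 2.72 (0.78 to 7.78) in cluster 7. In clusters 4 and 16 it had 0 uninjured UMIs. The corneal-type uninjured clusters lay at 0.15 to 0.72 CPM of it.

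The smallest counts complete the epithelial picture. Serpina9 was 1.08 and 4.35 CPM, 4.01-fold higher (3.11 to 5.24), Serpinb7 0.21 and 0.70 CPM, 3.37-fold higher (1.85 to 6.55), and Serpinb1b, with 4 and 20 UMIs, 4.21-fold higher (1.41 to 16.9). The 3 lower genes were Serpini1, neuroserpin (73 and 39 UMIs), Serpinb6c (25 and 5) and Serpina1b, a liver alpha-1-antitrypsin gene, with 25 UMIs uninjured and 0 injured, at least 9.90-fold lower. Over all uninjured cells, each of its 27 UMIs was in a different cell. Serpinc1, antithrombin, had 79 and 111 UMIs, a ratio of 1.18 (0.88 to 1.60).

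**Figure D4:**
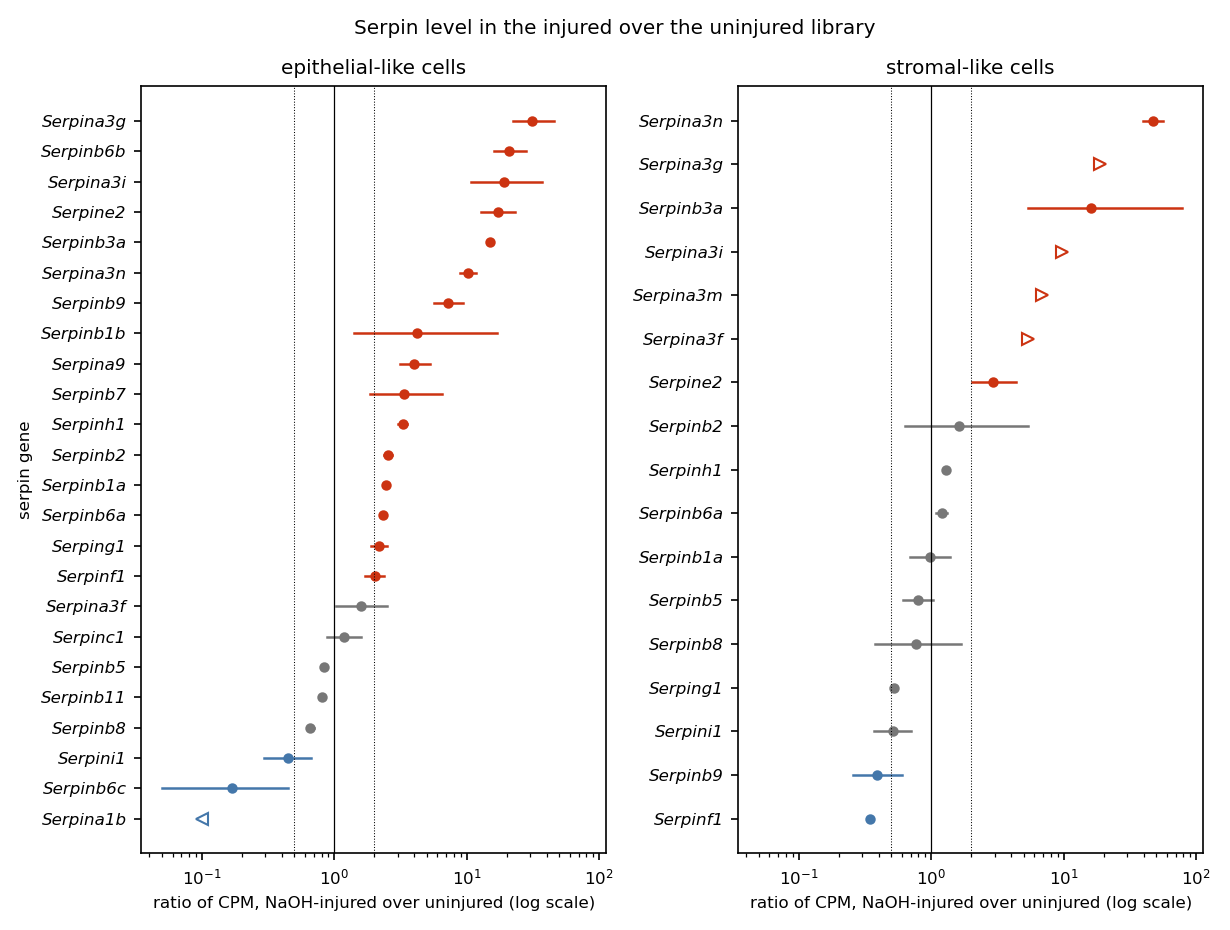
Ratio of CPM, injured over uninjured (log axis), for serpins with at least 20 UMIs in epithelial-like (left) and stromal-like (right) cells, with 95% intervals as lines. Red marks genes counted as higher, blue as lower and grey neither, dotted lines mark 2-fold, and open triangles are bounds from a count of 0. In the epithelium Serpina3g, Serpinb6b and Serpinb3a are among the red genes, and Serpina3n in the stroma has the highest ratio of either panel.

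Stromal-like cells, the keratocytes and fibroblasts of the cornea and limbus, had other serpins. Of 18 with enough UMIs, 8 were higher after injury, 2 lower and 8 neither. Of all 11964 genes with enough UMIs there, 9.85% were higher and 9.31% lower, and the median log2 ratio was 0.54 for the serpins and 0.01 for all genes. Almost all uninjured stromal-like cells (419 of 459) fell in cluster 2 and almost all injured ones (801 of 803) in cluster 14, so the libraries were compared over the whole class. Median UMIs per cell were 5715 uninjured and 12005 injured.

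Serpina3n had 139 UMIs in the uninjured and 25592 in the injured stroma, 53.8 against 2524 CPM, 46.9-fold higher (39.7 to 55.9). It was found in 14.2% of uninjured and 92.5% of injured stromal-like cells, and in 5.99% and 76.0% when each was thinned to 1000 UMIs. In the uninjured library it was uneven. Sub-cluster S2, led by Coch and Gsta3, had 185 CPM, while S0, led by the keratocyte gene Kera, had 3.88 CPM from 7 UMIs. In the injured library it was 3598 CPM in S4 (led by Cxcl14), 3098 CPM in S5 (Chil1 and Lcn2) and 3519 CPM in S1 (Chad, Myoc and Comp), but 472 CPM in S6 (Spp1, Tagln and Acta2) and 900 CPM in S3 (Clec3b and Pi16).

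Sub-cluster S1 was the only one with at least 10 cells of both libraries, 25 uninjured and 51 injured. There Serpina3n was 38.6 CPM uninjured, from 3 UMIs, and 3519 CPM injured. In the 40 uninjured cells that fell in the mostly injured cluster 14 it was 88.5 CPM against 2524 CPM in the injured cells, a ratio of 28.5 (15.5 to 59.5).

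The smaller Serpina3 genes had no UMI in uninjured stromal-like cells. In injured ones Serpina3g had 21.8 CPM (221 UMIs), Serpina3i 11.3 CPM (115), Serpina3m 7.99 CPM (81) and Serpina3f 6.21 CPM (63). Against a floor of 3 UMIs over the class these were at least 18.8-fold, 9.77-fold, 6.88-fold and 5.35-fold higher. With every cell thinned to 1000 UMIs the bounds for Serpina3g and Serpina3i fell to a log2 ratio of 1.29 and 1.40. Serpina3g was highest in S4 (29.5 CPM) and S5 (25.5 CPM), lower in S6 (10.4 CPM), and at 0 UMIs in the 51 injured cells of S1, where Serpina3n was high.

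Serpinf1, pigment epithelium-derived factor, an inhibitor of vessel growth, had 3490 CPM in the uninjured and 1198 CPM in the injured stroma (9019 and 12150 UMIs). It was 2.91-fold lower (2.83 to 2.99). It was present in 98.9% and 98.5% of the cells, but after thinning to 1000 UMIs in 96.5% and 69.8%. The 3 uninjured sub-clusters with at least 10 cells lay at 3447 to 4987 CPM. The injured ones lay at 835 to 1567 CPM apart from S1, at 2828 CPM. Within S1 it was thus 4987 against 2828 CPM, and within cluster 14 the ratio was 0.31 (0.28 to 0.34).

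Serping1, the C1 inhibitor of the complement and contact systems, was 1852 CPM uninjured and 966 CPM injured, 1.92-fold lower (1.85 to 1.98), which did not reach the 2-fold rule. It crossed the line at the automatic doublet threshold, with a log2 ratio of -1.08. The level was 2994 CPM in the uninjured sub-cluster S2 and 1460 CPM in S0, and after injury between 1147 and 1873 CPM in S1, S3, S4 and S5 but 249.8 CPM in S6. Within S1 the order turned, with 1298 CPM uninjured (1057 to 1577) and 1873 CPM injured (1721 to 2035), and within cluster 14 the ratio was 0.75 (0.63 to 0.89).

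Serpinh1, the collagen chaperone Hsp47, was 826 CPM uninjured and 1069.5 CPM injured, 1.30-fold higher (1.24 to 1.36), and highest in S6 (1433 CPM), which carried the contractile genes Tagln and Acta2. Among 20 collagen chaperones, modifying enzymes and related genes, 5 were higher and 1 lower in the stroma (all genes, 9.85% and 9.31%), with a median log2 ratio of 0.57 against 0.01 for all genes. The crosslinking enzyme Lox was 178 against 1374 CPM, 7.72-fold higher (7.03 to 8.49), and the prolyl hydroxylase subunit P4ha3 was 1.55 against 38.9 CPM. The lysyl hydroxylase Plod1 was 386 against 81.7 CPM, 4.73-fold lower (4.31 to 5.19).

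Serpine2 in the stroma was 11.99 and 34.9 CPM, 2.91-fold higher (2.01 to 4.35), far below its mural level. The order turned within cluster 14, where it was 159 CPM in the 40 uninjured (18 UMIs) and 34.8 CPM in the injured cells, a ratio of 0.22 (0.14 to 0.37). Within S1 it was 77.1 against 43.4 CPM (6 and 13 UMIs). Uninjured levels were lowest in S0 (0.55 CPM, 276 cells) and S2 (17.8 CPM, 150 cells), next to 19.5 to 134 CPM in the injured sub-clusters. Serpini1 was 23.2 and 11.8 CPM, 1.96-fold lower (1.41 to 2.70), and crossed 2-fold at the automatic doublet threshold (log2 ratio -1.03). Serpinb6a was 208 and 249 CPM, a ratio of 1.199 (1.09 to 1.32).

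**Figure D5:**
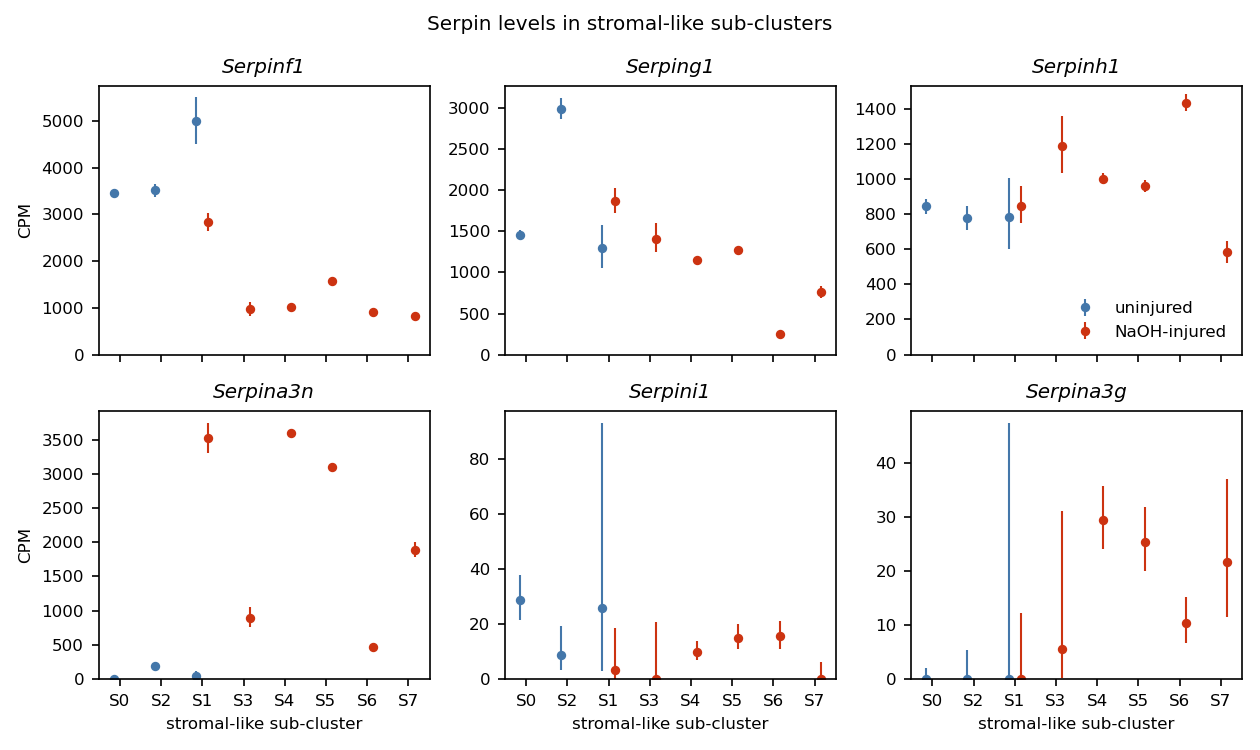
CPM of 6 serpin genes (panels, y axes from 0) in the stromal-like sub-clusters S0 to S7, drawn where a library has at least 10 cells, uninjured in blue and injured in red, with 95% Poisson intervals. Serpinf1 is highest in the 3 uninjured sub-clusters, and Serpina3n is highest in S1, S4 and S5 of the injured library.

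Serpinb9 was the other lower serpin of the stroma, with 15.1 against 5.92 CPM (39 and 60 UMIs), 2.55-fold lower (1.66 to 3.88). Of the 39 uninjured UMIs, 36 lay in the sub-cluster S0 (19.95 CPM), which holds uninjured cells only. The uninjured S2 was at 4.45 CPM, the injured sub-clusters at 3.33 to 13.4 CPM, and the 40 uninjured cells of cluster 14 had 0 UMIs. Serpinb3a counted as higher there (3 and 188 UMIs, ratio 15.97, 5.38 to 78.2), but at 3.90% of its epithelial level, near the 2.57% to 5.69% of the keratins Krt12, Krt14, Krt15 and Krt5 in the same cells. Sub-cluster S7 held 31 injured cells. Its 10 leading genes against the other stromal-like cells were Lgals7, Wfdc2, Fabp5, Krt14, Cstdc5, Wfdc18, Areg, Krt17, Fxyd3 and Krt15, with Krt14 at 3150 CPM. No stromal marker was among them, but this ranking disfavours genes that all stromal-like cells share. S7 had 1890 CPM of Serpina3n, 835 CPM of Serpinf1 and 757 CPM of Serping1, against 31.1, 6.57 and 8.77 CPM in the injured epithelium. The part of epithelial RNA in S7 was not tested. S7 had the highest Serpinb3a (45.0 CPM) and Serpinb5 (183 CPM) of the stromal sub-clusters. Without S7 and S1 together, 8 serpins were higher and 3 lower in the class.

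The vessel and nerve classes are small. Cells numbered 58 and 86 for mural-like, 54 and 97 for Schwann-like and 42 and 211 for vascular endothelial-like cells. Mural-like cells had 8 serpins with enough UMIs, 2 higher and 0 lower (all genes, 9.1% and 8.47%). Vascular endothelial-like cells had 12, 2 higher and 0 lower (6.06% and 6.64%), and Schwann-like cells 6, 1 higher and 1 lower (10.3% and 5.58%). In these 3 classes the median-of-ratios scaling shifts all log2 ratios by 0.17 to 0.20, and no called serpin below changed its call or its direction under that scaling.

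Serpinh1 was higher in all 3 classes. It went from 204 to 513 CPM in vascular endothelial-like cells, 2.51-fold higher (1.76 to 3.72), from 223 to 841 CPM in mural-like cells, 3.78-fold higher (2.58 to 5.74), and from 93.1 to 337 CPM in Schwann-like cells, 3.63-fold higher (1.85 to 8.12, 9 and 118 UMIs). After thinning, the Schwann log2 ratio was 0.99, just below the 2-fold line. In the injured library Col1a1 was at 0.485% of its stromal level in vascular endothelial-like, 4.73% in mural-like and 4.03% in Schwann-like cells, whereas Serpinh1 was at 47.9%, 78.6% and 31.6%. Of the collagen chaperone list, 5 of 17 genes with enough UMIs were higher in vascular endothelial-like, 3 of 14 in mural-like and 3 of 9 in Schwann-like cells (all genes, 6.06%, 9.1% and 10.3%), and 0 were lower.

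Serpine2 was highest in mural-like cells, 541 CPM uninjured and 392 CPM injured, a ratio of 0.73 (0.55 to 0.96), found in 63.8% and 80.2% of them. Serpini1, which inhibits the tissue plasminogen activator, was also highest there, at 55.6 and 77.1 CPM (7 and 49 UMIs). Serpinb6a was 270 and 326 CPM in mural-like and 289 and 362 CPM in vascular endothelial-like cells, with ratios of 1.21 (0.84 to 1.79) and 1.25 (0.92 to 1.74). Serpinb9 (46.0 and 26.9 CPM, 7 and 55 UMIs) and Serpinb6b (6.57 and 10.8 CPM, 1 and 22 UMIs) had intervals in vascular endothelial-like cells that include 1. Thinned to 1000 UMIs, the log2 ratio of Serpinb9 there turned from -0.77 to 0.41, and that of Serpinb6a went from 0.33 to 1.23.

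In Schwann-like cells Serpina3n, named after its values were seen, was already at 290 CPM uninjured and at 546 CPM injured (28 and 191 UMIs), a ratio of 1.89 (1.26 to 2.91) below the 2-fold rule. This is the only compared class other than the stroma where it was above 50 CPM in either library. Serpinb5 counted as lower, 290 against 82.9 CPM, 3.49-fold lower (2.002 to 6.08). It was at 48.6% of its epithelial level in uninjured and 16.7% in injured Schwann-like cells. By the same measure Krt14 was at 47.6% and 17.3%, Krt5 at 31.7% and 13.1%, and Krt15 at 17.2% and 9.51%. Krt12 went the other way, 35.4% and 53.2%, the latter from 5 UMIs. The part of epithelial RNA in the result was not tested. The log2 ratio of Serpinb5, -1.80, ranged from -3.05 with 15 principal components to -0.86 at the automatic doublet threshold.

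Immune-type cells were few in the uninjured library. Macrophage or monocyte-like cells (14 and 344) had 8 serpins with enough UMIs, 0 higher and 1 lower (all genes, 2.63% and 3.33%). The lower gene was Serpinb5, at 5 and 53 UMIs, with 15.5% of its epithelial level in the uninjured and 5.60% in the injured cells. By the same measure Krt14 was at 15.4% and 6.29%, Krt5 at 17.1% and 6.88%, Krt12 at 13.5% and 9.75%, and Krt15 at 5.77% and 5.40%. The part of epithelial RNA in the Serpinb5 result was not tested. Serpinb8 had 92.6 CPM from 5 UMIs uninjured and 73.3 CPM from 140 UMIs injured (ratio 0.79, 0.33 to 2.48). Its injured level was 263% of the epithelial one, against 5.40% to 9.75% for the 4 keratins. Serpinb6a was 92.6 and 156 CPM (5 and 297 UMIs, ratio 1.68, 0.71 to 5.21), and thinning turned its log2 ratio to -0.34.

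Neutrophil-like cells of the injured library (1016 cells, shallow, 762 of them under 1000 UMIs) had 83.1 CPM of Serpinb8 (65.7 to 104), 298% of the epithelial level, and 38.4 CPM of Serpinb2 (26.9 to 53.1), 89.9% of it. The keratins were at 10.9% to 19.8% of their epithelial level in these cells. Serpinb5 at 13.1% and Serpinb3a at 15.9% lay within that range, and the part of epithelial RNA in their counts was not tested. Serpinb1a, whose protein inhibits the proteases stored in neutrophils, was at 34.1 CPM (24.7%). In the 16 injured T or NK-like cells Serpinb1a had 468 CPM (249 to 799.7, 13 UMIs) and Serpinb6a 432 CPM (223 to 754, 12 UMIs).

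Proteases that serpins act on, and other inhibitors, were followed in gene lists. Of 34 serine proteases, 23 had enough UMIs in the epithelium, with 7 higher and 7 lower (all genes, 13.8% and 11.5%) and a median log2 ratio of 0.43 against 0.01 for all genes. The membrane proteases Tmprss11d, 365 against 33.8 CPM, and Tmprss11a, 365 against 70.7 CPM, were 10.8-fold (10.4 to 11.2) and 5.17-fold (5.02 to 5.32) lower. In the stroma 4 of 13 were higher and 2 lower (all genes, 9.85% and 9.31%), among the higher ones Plat, the tissue plasminogen activator, at 32.1 against 129 CPM, 4.02-fold higher (3.22 to 5.09), and Prss23 at 15.9 against 173 CPM, 10.9-fold higher (8.01 to 15.3).

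Of 10 cysteine proteases, 6 were higher and 0 lower in the epithelium (all genes, 13.8% and 11.5%, median log2 ratio 1.21), and 2 of 9 higher and 0 lower in the stroma (all genes, 9.85% and 9.31%). Casp1, an inflammatory caspase, had 4 UMIs uninjured and 11.0 CPM injured, whereas Ctsl, cathepsin L, was at 1572 and 1108 CPM, a ratio of 0.71 (0.70 to 0.71). Of 17 cofactors and receptors 16 were in the gene tables. In the epithelium 2 of 15 were higher and 2 lower, near the 13.8% and 11.5% of all genes, both lower ones being syndecans, Sdc1 (314 against 154 CPM) and Sdc4 (1021 against 510.2 CPM). In the stroma 4 of 15 were higher and 3 lower, against 9.85% and 9.31% of all genes.

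Among 25 inhibitors outside the serpin family, 9 of 22 were higher and 1 lower in the epithelium (all genes, 13.8% and 11.5%, median log2 ratio 0.51). In the stroma 6 of 22 were higher and 2 lower (all genes, 9.85% and 9.31%, median 0.16). In the epithelium Wfdc18 was 2.61 against 901 CPM, 345-fold higher (298 to 402), and Wfdc2 354 against 1765 CPM, 4.99-fold higher (4.92 to 5.06). In the stroma the metalloprotease inhibitor Timp1 was 10.1 against 2135 CPM, 212-fold higher (145 to 325), and the elastase inhibitor Slpi 2.32 against 333 CPM, 143-fold higher (65.8 to 391). The broad inhibitor A2m was 7935 against 1531 CPM, 5.18-fold lower (5.07 to 5.29). The collagen chaperone list in the epithelium had 10 of 20 higher and 1 lower (all genes, 13.8% and 11.5%, median 1.03), among them P4ha2 at 3.22 against 15.8 CPM.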

How the data were processed

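Gene by cell UMI count matrices of the 2 libraries were used as deposited. Per the file headers they were made by the authors with Cell Ranger 7.0.1, and per the submitters' processing notes reads were aligned to GRCm38. The sources used here do not give the annotation release or the capture chemistry. The libraries held 7490 and 9399 barcodes with 85457541 and 108863350 UMIs.

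Barcodes were kept (7150 and 9003) if they had 300 genes and 500 UMIs or more, with mitochondrial transcripts no higher than 20%. The automatic Scrublet threshold marked 0.448% and 0.0222% of them and was not used. The highest doublet scores were removed instead, at 0.8% per 1000 barcodes (407 and 635 cells). Cells were clustered together without serpin genes (2000 variable genes, 30 principal components, 20 neighbours, Leiden resolution 1; scanpy 1.11.5, Python 3.11.15), and stromal-like cells again with 20 components at resolution 0.5. Class names come from marker lists, and a cluster with fewer than 3 detected markers, or a shallow one without markers among its leading genes, stayed unnamed. Classes and clusters were compared where each library held at least 10 cells. Classes with fewer than 50 cells in a library are given with their cell numbers.

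UMIs were summed per class and library. Levels have exact Poisson and ratios exact conditional binomial intervals (95%, scipy 1.17.1). With 1 library a group no p-value was computed. A ratio against a count of 0 uses a floor of 3 UMIs over the class and is a bound. Genes were named where they were counted, reached 10 CPM and had at least 25% of their highest class level; those outside this rule were chosen after their values were seen. The members and lists were chosen with earlier results of these data known. The list genes given with values follow another rule. They were taken from those with the highest level or the largest ratio in their list, among genes of at least 10 CPM in a class. Tested on simulated counts with epithelial depths (14617 genes), the rule called 48% of genes changed 2-fold and 98% of those changed 4-fold. With stromal depths (11964 genes) it called 44% and 90%. The simulated counts held counting error only, with no spread between cells, mice or libraries, and a 2-fold change lies at the cut itself. These shares thus describe depth, not performance on replicate libraries. Alternatives were other scalings, count and fold thresholds, cell and doublet filters, clustering settings and thinning, and after the data were seen, adding the unnamed clusters, values within clusters and leaving out 2 stromal sub-clusters. Promoters came from RefSeq (GRCm38.p6) and gene positions from GENCODE M21 (GRCm38). Single values of 1 member are not reported here, and the figures leave it out.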

Additional observations from a re-analysis of the deposited data

Results flagged for a closer look

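Serpinb9 and Serpinf1 had ratios that pointed opposite ways in epithelial-like and stromal-like cells. The log2 ratio of Serpinb9, injured over uninjured, was 2.85 in the epithelium (68 and 583 UMIs) and -1.35 in the stroma (39 and 60 UMIs). Of the 39 uninjured stromal UMIs, 36 lay in sub-cluster S0, which holds uninjured cells only. That of Serpinf1 was 1.01 in the epithelium (220 and 526 UMIs) and -1.54 in the stroma (9019 and 12150 UMIs). With 1 library a group the difference between the classes was not tested. The epithelial Serpinf1 level was 0.094% of the stromal one uninjured and 0.55% injured, next to 0.085% and 0.38% for Dcn and 0.12% and 0.59% for Lum.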

How the results depend on the processing

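No paired analysis was possible because each group is 1 library and no replicate numbers link them. For 32 results given above, 433 alternative values were computed. Of these 367 stayed within the main interval or within 1.5 times the main count, 66 moved and 0 reversed a called direction. These leave out values within single clusters. Among the clusters of a named class 2 called directions turned with an interval that excludes 1. Serpinb2 in the epithelium had ratios of 0.67 and 0.56 in clusters 3 and 4, and Serpine2 in the stroma 0.22 in cluster 14. Serping1 and Serpinf1, counted as higher in the epithelium, were lower in the unnamed cluster 10, which lies outside that class. Their ratios there were 0.17 (0.03 to 0.60) and 0.26 (0.08 to 0.72). Serpina3n in the stroma (log2 ratio 5.55) ranged from 5.14 to 5.55, Serpinb3a in the epithelium (3.90) from 3.89 to 4.34, and Serpinf1 in the stroma (-1.54) from -1.69 to -1.41. Within clusters the log2 ratio was 4.83 for Serpina3n and -1.70 for Serpinf1 in cluster 14. That of Serpinb3a was 0.32, 1.30, 1.41 and 2.92 in clusters 4, 3, 13 and 7. From 0 uninjured UMIs it was at least 3.23 in cluster 16 and at least 4.46 in the unnamed cluster 10.

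Counts of serpins moved as follows. With at least 100 UMIs required, 1 was lower in epithelial-like, 1 lower in stromal-like, 1 higher in mural-like, 0 lower in Schwann-like and 0 lower in macrophage or monocyte-like cells. At a ratio of at least 4, 9 were higher in epithelial-like, 0 lower in stromal-like, 1 higher in mural-like, 0 higher and 0 lower in Schwann-like, 1 higher in vascular endothelial-like and 0 lower in macrophage or monocyte-like cells. At the automatic doublet threshold 4 were lower in stromal-like, 5 higher in mural-like, 3 higher and 0 lower in Schwann-like, 4 higher in vascular endothelial-like and 2 lower in macrophage or monocyte-like cells. With no doublets removed 4 were higher in mural-like, 3 higher and 0 lower in Schwann-like, 4 higher in vascular endothelial-like and 2 lower in macrophage or monocyte-like cells. With 15 principal components 2 were lower in macrophage or monocyte-like cells. With each cell weighted alike 4 were higher and 1 lower in vascular endothelial-like and 0 lower in macrophage or monocyte-like cells. Thinned to 1000 UMIs a cell, which leaves fewer UMIs to count, 10 were higher and 0 lower in epithelial-like, 2 higher in stromal-like, 1 higher in mural-like, 0 higher and 0 lower in Schwann-like and 0 lower in macrophage or monocyte-like cells. Apart from the thresholds and thinning, the cause was not tested. Thinning took the log2 ratio of Serpina3g in the epithelium from 4.97 to 5.68. Clade sums depended on single genes: without Serpinb5 the epithelial clade B log2 ratio went from 0.71 to 1.81, and without Serpina3n the stromal clade A one from 5.57 to 6.96, the last from 1 uninjured UMI.

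Depth limits mainly the classes other than epithelial-like and stromal-like, where most uninjured counts were under 100 UMIs. Injury and other differences between the 2 libraries, such as how much limbus or conjunctiva was taken, cannot be told apart.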
